A study of Mus musculus with 2 samples.

Results

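A set of 10 inflammatory genes of the myeloid lineage was followed in single-cell mRNA sequencing (scRNA-Seq) of osteoclast-induced cells. They are Il1b and Tnf, which encode cytokines, and Il1rn and Il18bp, which encode secreted antagonists of IL-1 and IL-18. Ptgs2 and Ptges encode enzymes of prostaglandin E2 synthesis, and Acod1 encodes the enzyme that makes itaconate. Clec4e and Slamf7 encode surface receptors, and Cxcl3 encodes a chemokine. The members were chosen by symbol, with earlier results of these data known. All 10 were found once among the 32544 genes listed for both libraries. Cells were used if they had at least 500 detected genes and at most 10% mitochondrial transcripts.

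Macrophages switch such genes on through NF-kB, AP-1 and C/EBP factors after pattern-recognition receptors or cytokine receptors are engaged, and interferons add to the expression of several of them. IL-1 and TNF act on osteoclast (OC) precursors together with RANKL, and their antagonists limit that signal. Itaconate is drawn from the citric acid cycle and restrains inflammatory signaling in macrophages.

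The cells were murine bone marrow-derived monocytes (BMDMs), in which RANKL (100 ng/ml) with M-CSF (50 ng/ml) induced OCs, the cells that resorb bone. The library labelled CONTROL is called the control library. Its alleles and its Cre status are not given in the labels. The other came from the genotype LysM-Cre;Arid1afl/fl and is called the mutant library. The product of Arid1a belongs to BAF, a complex that moves nucleosomes, and loxP sites flank exons 5 and 6 of the gene. Cre is driven by the lysozyme M promoter, which is active across myeloid cells, so recombination is not limited to OC precursors. Both libraries received the same M-CSF and RANKL, and no culture without RANKL was analysed here. The age and number of the animals behind each library are not given in the labels. There was 1 library per genotype, so no difference has a replicate check, no test across samples was possible, and each range in parentheses is a 95% interval that covers counting error and nothing else.

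The control library held 6269 cells with 163618835 unique molecular identifiers (UMIs, each marking 1 captured mRNA molecule), and the mutant library held 5663 cells with 131469887 UMIs. Median depth was 23978 and 21734 UMIs per cell. Only 8 barcode sequences occurred in both libraries. Arid1a was counted at 51.9 and 20.4 counts per 1e6 UMIs (CPM), but 3′ counting reads the transcript end and not exons 5 and 6, so this value does not check the deletion. Csf1r, the M-CSF receptor of monocytes and macrophages, was present at 256 and 402 CPM, whereas summed markers of T cells, B cells, NK cells, mast cells or basophils and erythroid cells each stayed at or below 1.24 CPM. Several groups of markers differed between the libraries. All 4 neutrophil markers (S100a8, S100a9, Camp and Ngp) were at least 2-fold higher in the mutant library, with a sum of 264 against 1982 CPM. All 4 genes of class II antigen presentation (Cd74, H2-Aa, H2-Eb1 and H2-Ab1) were also at least 2-fold higher, with a sum of 28.7 against 116 CPM. The 4 OC markers (Ctsk, Mmp9, Acp5 and Dcstamp) summed to 232 and 97.8 CPM. The 4 monocytic markers (Lgmn, Dab2, Csf1r and BC005537) were all higher in the mutant library, with a sum of 883 against 1651 CPM. Of these, Lgmn was at least 2-fold higher, at 129 and 544 CPM. All 12 interferon-stimulated genes examined were at least 2-fold higher in the mutant library, with a sum of 1147 against 4455 CPM. The part these shifts have in the differences below was not tested, except where values without the cells concerned are given.

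Promoter sequences are shown for 3 members: Slamf7 and Il18bp, which had the largest library differences among members with more than a handful of control transcripts, and Cxcl3, which had the fewest positive cells for its depth-based expectation in both libraries. Each runs from 250 bases before to 50 bases after the start of the canonical transcript (GRCm39 with GENCODE M39), which for Slamf7 and Il18bp lies inside the gene's outer bounds, read 5′ to 3′ along the strand of the gene, with matches to the searched motifs in capitals. Cxcl3 is on the plus strand at chr5:90933712-90934011, Slamf7 on the minus strand at chr1:171476531-171476830, and Il18bp on the minus strand at chr7:101667397-101667696.
Cxcl3: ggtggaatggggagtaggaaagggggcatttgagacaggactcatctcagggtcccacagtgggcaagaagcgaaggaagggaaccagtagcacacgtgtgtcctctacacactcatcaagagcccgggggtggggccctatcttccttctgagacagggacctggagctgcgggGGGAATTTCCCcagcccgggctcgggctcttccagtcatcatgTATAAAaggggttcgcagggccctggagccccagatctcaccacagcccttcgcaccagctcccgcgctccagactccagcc
Slamf7: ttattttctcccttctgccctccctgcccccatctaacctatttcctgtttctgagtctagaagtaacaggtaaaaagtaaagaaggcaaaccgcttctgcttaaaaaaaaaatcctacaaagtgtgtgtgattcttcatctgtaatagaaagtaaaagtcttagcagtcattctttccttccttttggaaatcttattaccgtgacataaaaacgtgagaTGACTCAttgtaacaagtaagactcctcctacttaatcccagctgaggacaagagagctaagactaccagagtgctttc
Il18bp: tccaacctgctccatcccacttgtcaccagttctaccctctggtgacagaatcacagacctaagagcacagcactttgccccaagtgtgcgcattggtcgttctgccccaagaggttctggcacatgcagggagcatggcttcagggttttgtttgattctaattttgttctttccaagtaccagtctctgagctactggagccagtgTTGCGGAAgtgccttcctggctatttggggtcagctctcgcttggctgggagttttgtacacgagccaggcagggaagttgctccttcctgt

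The motifs were searched on both strands in these windows of all 10 members and of 21770 genes. In Cxcl3, a match to the kappaB consensus (held by 1.76% of all promoters) began 75 bases before the start and a TATA match (TATAAA, 13.2%) began 32 bases before it. The kappaB match overlapped matches to a looser kappaB form (4.82%). In Slamf7, an AP-1 match (TGANTCA, 7.14%) began 29 bases before the start. In Il18bp, a C/EBP match (TTGCNNAA, 10.7%) began 42 bases before the start. Across the other members, AP-1 letters were found in Il1rn, C/EBP letters in Clec4e, and the palindrome TTCNNNGAA (8.81%) in Ptgs2. TATAAA was held by 5 of 10 members (Acod1, Il1b, Tnf, Clec4e and Cxcl3). In Acod1 it began 7 bases after the start, and in the others 29 to 32 bases before it. The letters of the interferon-stimulated response element (3.84%) and the ETS letters GAGGAAGT (3.07%) were in the window of 0 members. A match is a string of letters and not evidence of binding.

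The members lie on 7 chromosomes. Il1b (chr2:129206490-129213059, minus strand), Il1rn (chr2:24226865-24241506, plus) and Ptges (chr2:30779483-30820196, minus) share chromosome 2, and Ptgs2 (chr1:149975194-149983978, plus) and Slamf7 (chr1:171459966-171480603, minus) share chromosome 1. Tnf is at chr17:35418357-35420983 (minus), Clec4e at chr6:123258748-123266829 (minus), Cxcl3 at chr5:90933962-90937459 (plus), Acod1 at chr14:103284413-103294009 (plus) and Il18bp at chr7:101638490-101668206 (minus). Genes on the opposite strand overlap Acod1, Il1b, Ptgs2, Ptges, Slamf7 and Il18bp, which for Il18bp is Numa1. Whether counting used the strand is not given in the sources used here, so the counts of these 6 members are uncertain to that extent.

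To ask whether inflammatory transcripts differed after loss of Arid1a, levels were compared between the libraries. Every member was higher in the mutant library, where 56% of the 12816 genes with at least 50 UMIs were higher. The difference was at least 2-fold for 6 of 10 members (Il1b, Il18bp, Slamf7, Acod1, Cxcl3 and Il1rn), against 8.79% of all genes, and 0 members were at least 2-fold lower, against 4.17%. At a limit of 1.5-fold, 9 of 10 members were higher, against 17% of genes. Among genes with a mean of both libraries of 20 CPM or more, 3 of 4 members were at least 2-fold higher, against 5.65%. The median log2 ratio of mutant over control was 1.24 for the members and 0.065 for all genes tested. Because the members were chosen with earlier results of these data known, these comparisons with all genes do not measure an enrichment. Levels are CPM over all cells of a library, and they are compared between libraries and not between genes.

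Among the cytokines, Il1b, which encodes the IL-1β precursor, was nearly absent from the control library, with 6 UMIs (0.0367 CPM, 0.0135 to 0.0798). The mutant library held 227 UMIs (1.73 CPM, 1.51 to 1.97), a log2 ratio of 5.56 (4.41 to 7.02). This was the largest ratio of the 10 members, but it rests on few molecules and its level stayed low in both libraries. Tnf, which encodes tumor necrosis factor, had a control level of 6.96 CPM (6.56 to 7.37) and a mutant level of 12.5 CPM (11.9 to 13.1). Its log2 ratio of 0.84 (0.73 to 0.95) was below 2-fold.

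Both antagonists were higher in the mutant library. Il1rn, whose product occupies the IL-1 receptor without signaling, had a control level of 53.7 CPM (52.6 to 54.9) and a mutant level of 121 CPM (119 to 123). Il18bp, whose product binds IL-18 in the extracellular space, was at 2.98 CPM (2.72 to 3.26) and 30.9 CPM (29.95 to 31.9). The log2 ratios were 1.17 (1.14 to 1.21) and 3.37 (3.24 to 3.51). Relative to the cytokine each product opposes, the 2 antagonists went opposite ways. There were 1465 Il1rn UMIs per Il1b UMI in the control library (673 to 3993) and 70.2 in the mutant library (61.6 to 80.4). Il18bp UMIs per Il18 UMI were 0.338 (0.305 to 0.375) in the control and 1.35 (1.29 to 1.42) in the mutant library. These ratios compare the libraries only, since capture differs between transcripts.

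Both prostaglandin enzymes were within 2-fold of their control level. Ptgs2, the inducible cyclooxygenase, had a control level of 1.82 CPM (1.62 to 2.04) and a mutant level of 3.32 CPM (3.02 to 3.65), a log2 ratio of 0.87 (0.65 to 1.09). Ptges, the microsomal prostaglandin E synthase, was at 13.1 CPM (12.6 to 13.7) and 16.7 CPM (16.0 to 17.4). Its log2 ratio of 0.35 (0.26 to 0.43) was the smallest of the members, and 72.3% of all tested genes had a lower one.

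Acod1 had a control level of 18.3 CPM (17.7 to 19.0) and a mutant level of 101 CPM (98.9 to 102), a log2 ratio of 2.46 (2.40 to 2.51). Slamf7, an adhesion receptor of the SLAM family, was at 6.44 CPM (6.06 to 6.84) and 51.4 CPM (50.2 to 52.6), a 7.98-fold difference (log2 interval 2.90 to 3.09). Clec4e, also called Mincle, a C-type lectin that senses microbial glycolipids and dead cells, was at 105 CPM (104 to 107) and 167 CPM (165 to 169), a log2 ratio of 0.67 (0.64 to 0.69). Among the receptors, then, Slamf7 was beyond 2-fold and Clec4e was not. Cxcl3, which attracts neutrophils, was at 4.13 CPM (3.83 to 4.46) and 10.2 CPM (9.67 to 10.8), a log2 ratio of 1.30 (1.17 to 1.44).

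**Figure D1:**
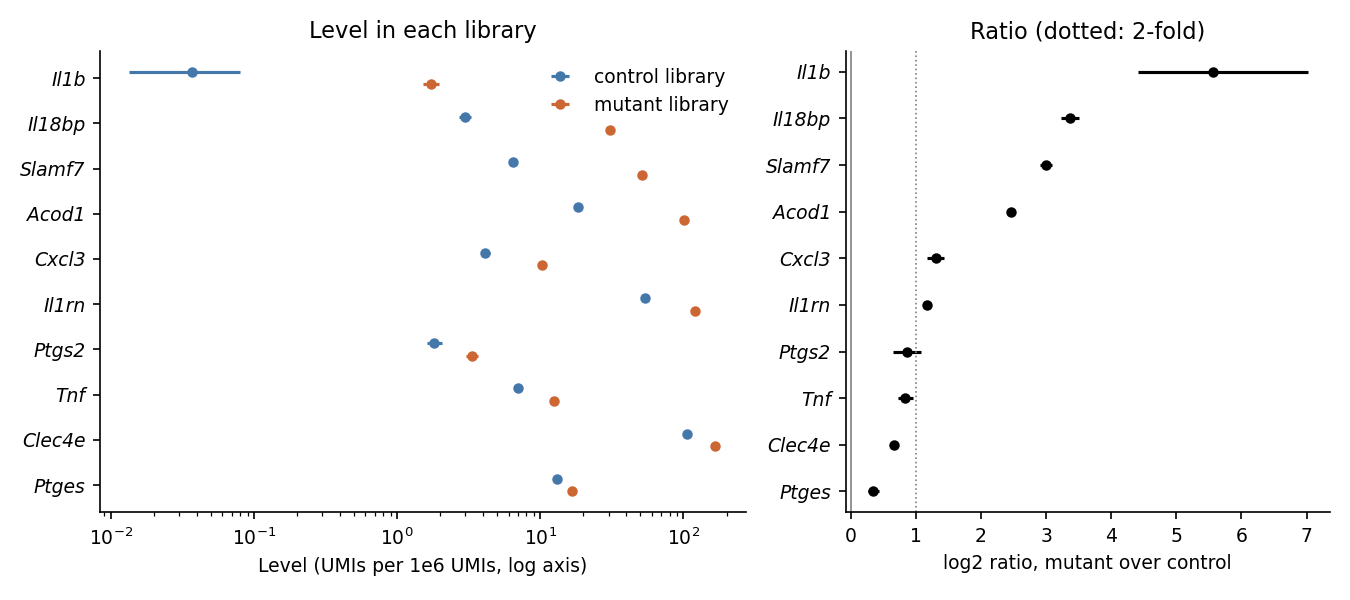
Levels of the 10 members in the control and mutant libraries (left, CPM on a log axis) and their log2 ratio (right), as points with 95% counting intervals, 1 library per genotype. All 10 ratios lie above 0 and 6 lie above the dotted 2-fold line, from 0.35 for Ptges to 5.56 for Il1b.

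The differences were next split into how many cells had a transcript and how many UMIs such a cell held. For this, every cell was thinned at random to 5000 UMIs, which left 6101 control and 5312 mutant cells and left out 168 and 351 shallower ones. The share with Acod1 was 5.31% in the control library (4.76 to 5.90) and 26.1% (24.9 to 27.3) in the mutant one. Slamf7 was detected in 2.90% and 18.0%, Il18bp in 1.49% and 12.9%, and Il1rn in 19.6% and 33.6%. Without thinning, the Acod1 shares were 15.4% and 48.8%, and those of Il18bp were 6.48% and 37.3%.

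For Acod1, Slamf7 and Il18bp, most of the difference at this depth fell on the share of positive cells. Positive control cells held on average 1.48, 1.15 and 1.04 UMIs of them. With so few UMIs per cell, a higher level in the same cells would also add positive cells, so the split cannot tell these apart. On the log2 scale the share of cells contributed 2.29 and the UMIs per positive cell 0.34 for Acod1. These contributions were 2.63 and 0.31 for Slamf7, and 3.11 and 0.32 for Il18bp. Ptges differed in another way, since its shares of 4.18% (3.69 to 4.71) and 4.24% (3.71 to 4.81) differed by 0.0561 points (-0.692 to 0.812). Its share contributed 0.019 and its UMIs per positive cell 0.25. Clec4e was detected in 29.2% and 37.9% of cells, Tnf in 3.70% and 6.08%, Cxcl3 in 1.07% and 2.45%, Ptgs2 in 0.787% and 1.51%, and Il1b in 0.0328% and 0.904%.

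Free RNA in droplets also gives single UMIs, and no cell type known to lack all of these genes was present in number. In the mutant library, 75 cells rich in neutrophil markers had a median depth of 10828 UMIs, below that of the library, and after thinning showed Slamf7 in 1.33% of cells, Il18bp in 6.67% and Acod1 in 8%. Tnf was detected in 6.67% of them (2.20 to 14.9), close to its share over all mutant cells. Il1b was detected in 1.33% of these 75 cells (0.0338 to 7.21), and its share over all mutant cells was 0.904%. For Tnf and Il1b, expression at shares of this size cannot be told apart from free RNA here. Whether these 75 cells express either gene themselves was not examined. Il1rn and Clec4e, which neutrophils also express, were found in 17.3% and 12%. Cxcl3 and Ptgs2 were found in 0 of 75 cells, which allows a share of up to 4% when 3 counts are taken as the limit for a count of 0. The 17 such control cells (median depth 8616 UMIs) allow, by the same rule, a share of up to 17.6% where 0 were positive and were too few for a comparison.

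Within each library the transcripts were gathered in fewer cells than depth alone gives. The number of cells with a UMI was divided by the number expected if a gene's UMIs fell on cells in proportion to their depth, and a ratio of 0.8 or less was called patchy. In the control library 7 of the 9 members with at least 50 UMIs were patchy, where 4.12% of all such genes were. In the mutant library 10 of 10 were patchy, where 5.27% of genes were. Among genes of 1 to 200 CPM alone the background was 4.13% and 5.18%. The median ratio of members was 0.692 and 0.650, against 0.969 and 0.967 for all genes of 1 to 200 CPM. A low ratio counts transcripts at capture and does not say how long a cell had held them.

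By this ratio Cxcl3 was the lowest member in both libraries. In the control library 168 cells held its 676 UMIs, where 633 cells were expected (ratio 0.265), and 13 cells held 50% of them. The 2 highest cells had 60 and 54 UMIs. Its 1342 mutant UMIs lay in 340 cells, where 1156 were expected (ratio 0.294). There, 28 cells held 50% of the UMIs and the 2 highest cells had 99 and 53. The log2 ratio between the libraries was 1.33 without the highest cell of each, so that cell alone did not set it. The part of the other cells with many UMIs was not tested.

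Acod1 was gathered in both libraries but less so in the mutant. In the control library 132 cells (2.11%) held 50% of its UMIs and the highest cell held 117. Among mutant cells, 437 (7.72%) held 50% and the highest cell held 69. The ratio of cells was 0.423 and 0.597. Ptges went the other way, with 125 cells (1.99%) and a ratio of 0.520 in the control library but 68 cells (1.20%) and a ratio of 0.349 in the mutant library. At least 10 Ptges UMIs were found in 51 mutant and 35 control cells. These counts are of unthinned cells, and at 5000 UMIs the shares of positive cells were close, as given above.

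Il1b was confined to few mutant cells, with 116 positive, a ratio of 0.525 and 24 cells that held 50% of the UMIs. Its 6 control UMIs lay in 6 different cells. Ptgs2 had ratios of 0.753 and 0.611, Slamf7 0.692 and 0.688, Clec4e 0.688 and 0.713, and Il1rn 0.725 and 0.743. Tnf (0.820 and 0.785) and Il18bp (0.873 and 0.786) were spread most evenly, and they were the 2 members above the limit in the control library. Just inside the limit were Tnf and Il18bp in the mutant library, and just outside it was Tnf in the control library. Patchiness depends on depth, because after thinning to 5000 UMIs 4 of 9 control members (1.33% of the same background genes) and 7 of 10 mutant members (2.31%) were at 0.8 or less.

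**Figure D2:**
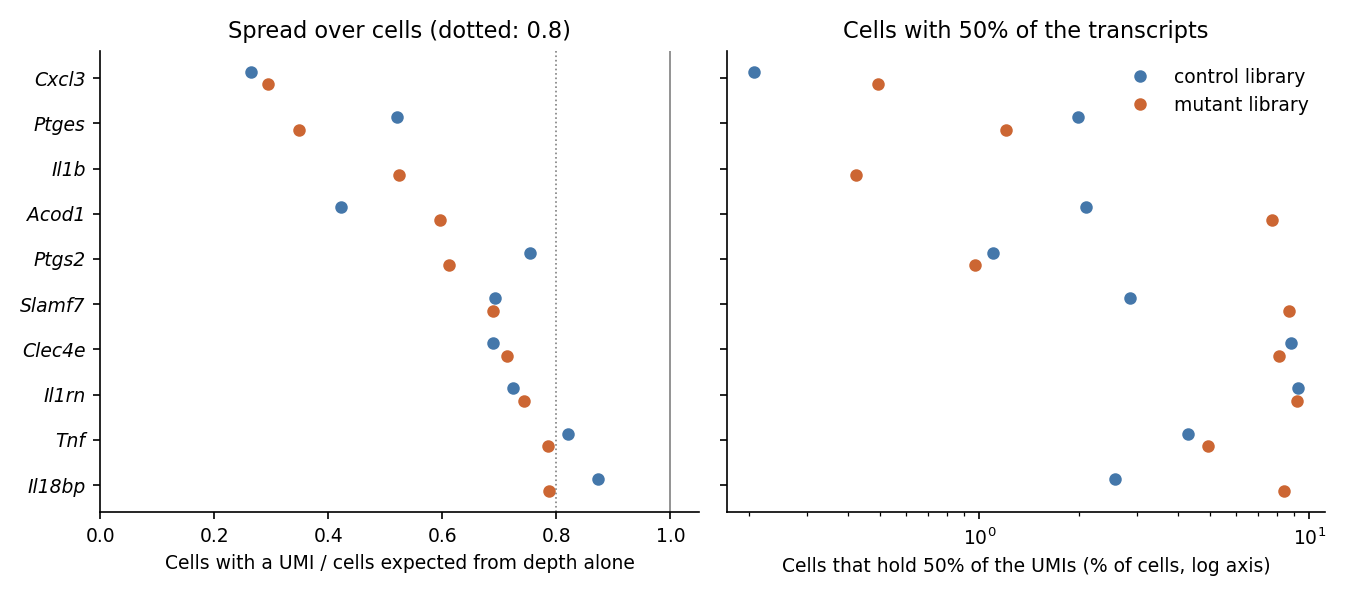
Concentration of member transcripts, with the cells that had a UMI divided by the number expected from depth alone (left, dotted line at 0.8) and the percentage of cells that hold 50% of a gene's UMIs (right, log axis), 1 point per gene and library. Cxcl3 lies farthest left in both panels for the control library. Acod1, Slamf7 and Il18bp need 2.11%, 2.87% and 2.58% of cells in the control library against 7.72%, 8.67% and 8.41% in the mutant one. This percentage is limited by the number of UMIs, which was lower in the control library for each. By the ratio on the left, Slamf7 was at 0.692 and 0.688 and Il18bp at 0.873 and 0.786 (control and mutant). Il1b is drawn for the mutant library alone.

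To ask whether the same cells carried several members, the members detected per thinned cell were counted. The share of cells with at least 2 members was 14.3% (13.4 to 15.2) for the control and 41.6% (40.2 to 42.9) for the mutant library, which is 27.3 points higher (25.7 to 28.9). At least 3 were found in 3.07% and 18.3%. No member was detected in 49.8% of control and 25.3% of mutant cells, and the highest number in a cell was 5 and 7. If the members were detected independently at their own shares, at least 2 would be expected in 809 control and 2346 mutant cells, and 871 (1.08 times) and 2208 (0.941 times) were seen.

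Cells with many members were more frequent than independence gives. At least 4 members were found in 43 control cells where 6.34 were expected (6.78 times, 4.91 to 9.13). Among mutant cells at least 4 were found in 366 where 158 were expected (2.32 times, 2.09 to 2.57). The observed number over the expected one was 1.92 for at least 3 members among control cells and 1.24 among mutant cells. The ratio of observed to expected cells was thus greater in the control library, in which fewer cells were involved. Such a ratio can be larger where members are detected in fewer cells, as they were there. It therefore does not rank the libraries by how closely the members go together.

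By pairs, 18 of 21 control pairs with at least 5 expected cells were found together more often than the product of their shares, and 8 had an interval above it. In the mutant library 36 of 38 such pairs were above and 20 had an interval above. In neither library did any pair have an interval below. The median ratio of observed to expected cells was 1.22 over the 21 control pairs and 1.36 over the 38 mutant pairs. These medians cover different sets of pairs and are not compared between libraries. The 45 pairs share members and cells, so these counts are not independent of each other.

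Acod1 took part in many of these pairs. With Ptges it was found in 38 control cells where 13.5 were expected (2.81 times, 1.99 to 3.85) and in 99 mutant cells where 58.6 were expected (1.69 times, 1.37 to 2.06). With Clec4e it was found in 169 control cells where 94.6 were expected and in 711 mutant cells where 525 were expected. Read the other way, Clec4e was detected in 52.2% of Acod1-positive and 27.9% of Acod1-negative control cells, and in 51.4% and 33.2% of mutant cells. Acod1 and Cxcl3 were together in 68 mutant cells where 33.9 were expected, the highest ratio of the mutant library at 2.01.

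Slamf7 and Il18bp, with the largest library differences after Il1b, were together in 205 mutant cells where 124 were expected (1.66 times). In the control library they were together in 6 cells where 2.64 were expected, too few to read. Il1b had 5 mutant pairs with at least 5 expected cells, and the interval of each included 1. With Acod1 it was found in 6 cells where 12.5 were expected (0.48 times, 0.18 to 1.04), with Il1rn in 14 where 16.1 were, with Clec4e in 21 where 18.2 were, with Il18bp in 9 where 6.20 were and with Slamf7 in 13 where 8.65 were. The prostaglandin enzymes Ptgs2 and Ptges, which act in sequence, were together in 4 control and 9 mutant cells, where 2.01 and 3.39 were expected.

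**Figure D3:**
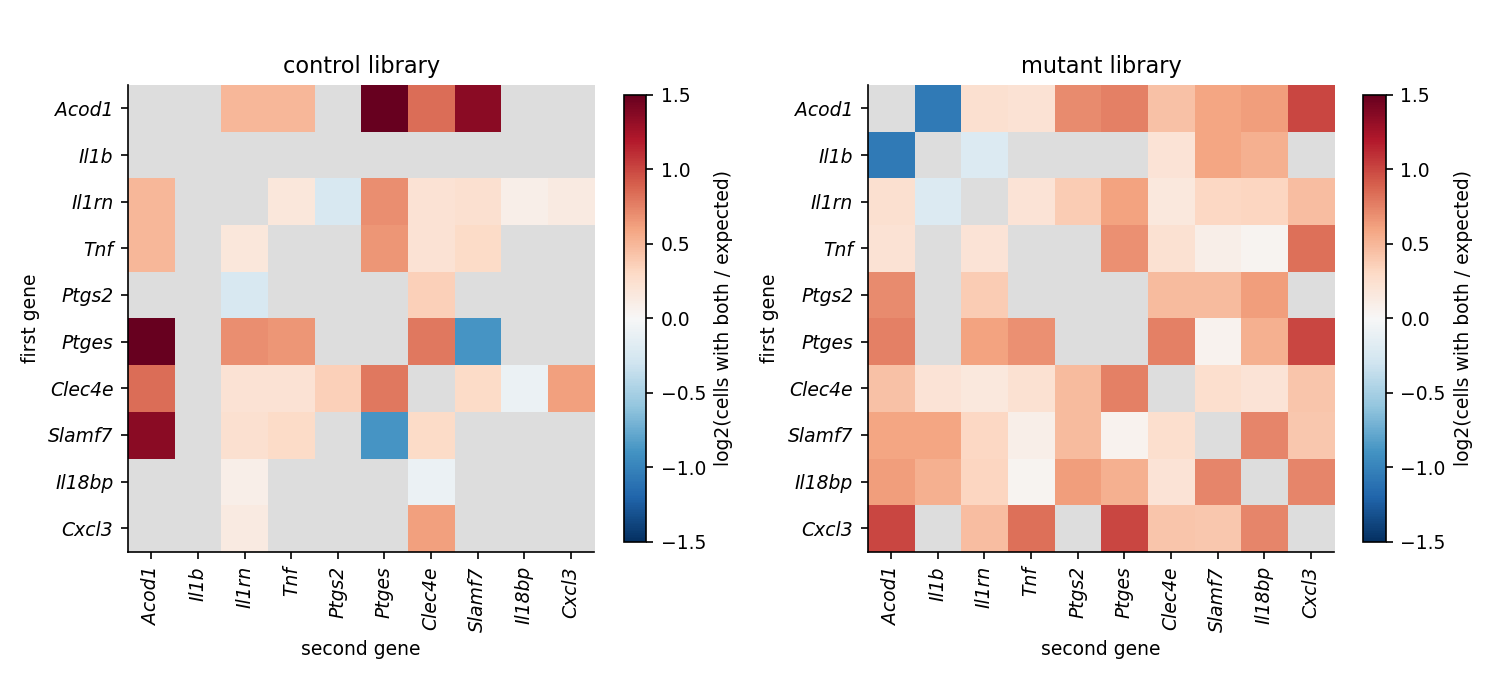
Co-detection of member pairs in cells thinned to 5000 UMIs for the control (left) and mutant (right) libraries, with color giving the log2 of cells with both genes over the cells expected from their shares and gray marking pairs with under 5 expected cells. Most drawn pairs are above 0 (18 of 21 and 36 of 38), with Acod1 and Ptges the highest control pair and Acod1 with Il1b the lowest mutant pair.

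Which cells carried the members was examined with gates on marker genes that are not members. A cell was in the neutrophil gate with at least 1% of its UMIs from the 4 neutrophil markers, and in the class II gate with at least 3 UMIs and 0.1% from the 4 class II genes. OC and cycling gates needed at least 3 UMIs, after thinning, over the 4 OC markers or over Mki67, Top2a, Aurka and Cdk1. Cells in no gate numbered 3318 among control and 3304 among mutant cells. The neutrophil gate held 19 and 89 cells, the class II gate 14 and 109, the OC gate 335 and 126, the OC and cycling gates together 257 and 59, and the cycling gate alone 2158 and 1651. Many cells lay near the OC limit, with 275 control and 249 mutant cells at 2 UMIs and 151 and 98 at 3. A stromal gate over Sparc, Col1a1, Col1a2, Col3a1, Bgn and Dcn held 3 cells in each library.

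The library difference was present within each of the gates that held many cells. In cells of no gate all 10 members were higher in the mutant library and 5 were at least 2-fold higher, where 7.01% of genes were. In cycling-gate cells all 10 had a higher value, although the interval of Ptges included 0, and 6 were at least 2-fold higher (7.52% of genes). Acod1 was at 22.6 and 112 CPM in cells of no gate and at 16.7 and 81.8 CPM in cycling-gate cells. Slamf7 was at 9.02 and 59.5 CPM in cells of no gate and at 4.45 and 36.4 CPM in cycling-gate cells. In the small class II gate, Ptges was lower in the mutant library, at 65.7 and 9.52 CPM (19 and 16 UMIs). Acod1, Slamf7 and Il18bp were at least 2-fold higher in that gate.

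In OC-gate cells 8 of 10 members were at least 2-fold higher in the mutant library (11% of genes were). The other two were Ptges, at a log2 ratio of 0.85, and Il1b, with 0 control and 8 mutant UMIs. Ptgs2, counted among the 8, had 4 control and 12 mutant UMIs. In the control library Acod1 was lower in OC-gate cells, at 6.60 CPM (5.09 to 8.41), than in cells of no gate. In mutant OC-gate cells it was at 100.2 CPM (88.8 to 113), a log2 ratio of 3.93 (3.53 to 4.34). Clec4e followed this pattern, at 45.9 CPM in control OC-gate cells against 115 CPM in cells of no gate, and at 208 and 180 CPM in the same mutant gates. Slamf7 had a log2 ratio of 4.73 (4.12 to 5.39) and Il18bp of 4.95 (4.15 to 5.87) in OC-gate cells, with 25 and 14 control UMIs behind them. Il1rn was higher in OC-gate cells than in cells of no gate in both libraries, at 78.0 and 55.3 CPM in the control and 238 and 125 CPM in the mutant. The difference between gates was not tested. The OC gate sums 4 markers that were all lower in the mutant library but unequally so, from Acp5 (105 and 69.0 CPM) to Mmp9 (58.0 and 6.05 CPM). Mutant cells may thus pass the gate on other markers than control cells do, which was not examined.

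A few cells set some of these values. In the mutant OC gate, 1 cell held 99 of the 151 Cxcl3 UMIs, and leaving out that cell brought the mutant level from 54.1 to 18.8 CPM. In cells of both the OC and cycling gates, 8 of 10 members were at least 2-fold higher (8.46% of genes were). One of them, Ptges, had a log2 ratio of 1.67, which was 0.65 without the highest cells, since 1 mutant cell held 36 of 66 UMIs. Another, Cxcl3, rested on 9 UMIs in each library, of which 1 cell held 7. Tnf rested on 17 control and 15 mutant UMIs. Ptgs2 had 7 control and 2 mutant UMIs there, and its log2 ratio was 0.43 with and -0.058 without the highest cells.

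Il1b was the member most tied to a marker-defined set of cells. Of its 227 mutant UMIs, 69 (30.4%) lay in the 109 class II-gate cells, where its level was 41.1 CPM (31.9 to 52.0) against 1.13 CPM in cells of no gate. In mutant cells with Il1b, H2-Aa was at 1167 CPM and Cd74 at 1829 CPM, against 23.6 and 84.0 CPM in cells without it. The class II gate held more cells in the mutant library, and the Il1b log2 ratio was 5.05 without neutrophil-, stromal- and class II-gate cells. Without these cells all 10 log2 ratios lay within the counting intervals of their values over all cells, and that of Ptgs2 was 0.79. Ptgs2 had 26 of its 437 mutant UMIs (5.95%) in the 3 stromal-gate cells.

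**Figure D4:**
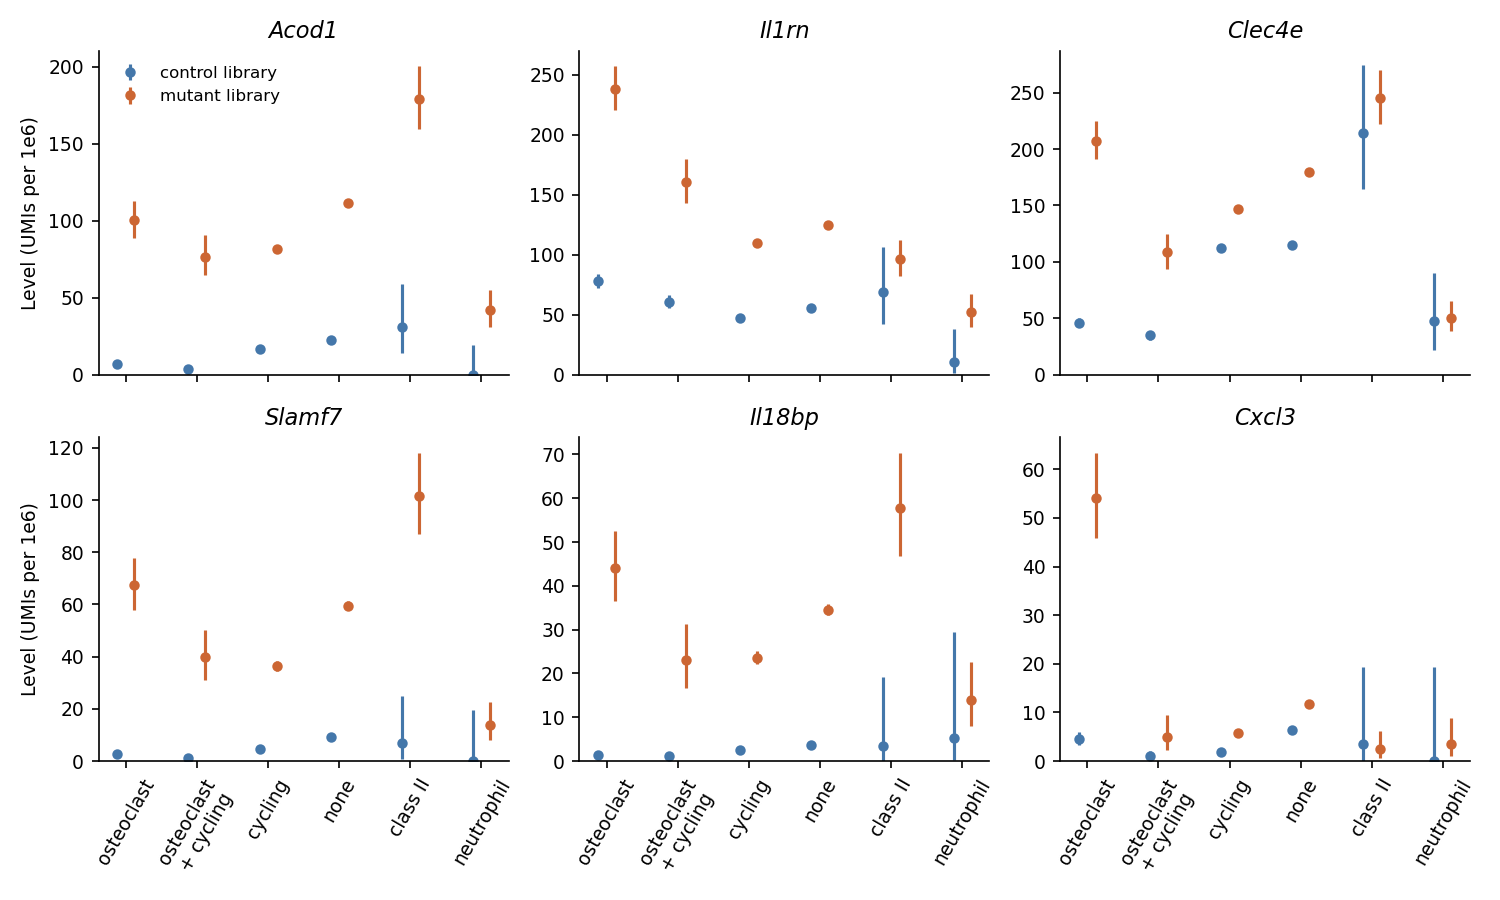
Levels of 6 members in marker gates of the control and mutant libraries, in CPM with 95% counting intervals, 1 library per genotype. Acod1, Slamf7 and Il18bp lie higher in the mutant library in the 4 gates with many cells; in OC-gate cells Clec4e is at 45.9 and 208 CPM and Cxcl3 at 4.47 and 54.1 CPM, the latter with 99 of 151 mutant UMIs in 1 cell.

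Because interferon-stimulated genes were higher in the mutant library, members were also followed along their summed level. Cells outside the neutrophil, stromal and class II gates with at least 5000 UMIs were split within each library into 4 equal bins. The bins followed the summed share of 12 interferon-stimulated genes, of which none is a member. Among them were Isg15, Ifit1, Ifit2, Irf7, Usp18, Rsad2, Oasl2, Ifi44 and Bst2. Bst2, at 553 CPM in the control and 1851 CPM in the mutant library, weighed most in the sum of the 12 genes. Their summed level ran from 389 CPM in the lowest to 2426 CPM in the highest control bin, and from 2772 to 6980 CPM in the mutant library, so the lowest mutant bin lay above the highest control bin and the libraries could not be matched on it. Each bin held 1517 control or 1285 mutant cells.

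Most members were higher where interferon-stimulated genes were higher, within each library. The share of all genes that did the same is not given here, so the pattern is not shown to be particular to the members. Il18bp was at 1.18, 1.83, 2.84 and 6.31 CPM over the control bins and at 16.3, 22.7, 29.0 and 58.3 CPM over the mutant bins. Slamf7 was at 2.50, 4.03, 6.87 and 12.9 CPM in the control and at 32.8, 39.6, 47.2 and 89.9 CPM in the mutant library. Acod1 was at 6.74 CPM in the lowest and 41.2 CPM in the highest control bin, and at 72.7 and 160 CPM in the mutant ones. In log2 units the highest bin exceeded the lowest by 2.42 (control) and 1.84 (mutant) for Il18bp, by 2.37 and 1.45 for Slamf7, and by 2.61 and 1.14 for Acod1. Median depth was lower in the highest bin, at 22689 against 25273 UMIs for control and 20532 against 23623 for mutant cells.

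Cxcl3 differed between the highest and lowest bin by 1.64 among control and by 1.16 among mutant cells. Clec4e differed by 1.01 and 1.02, Il1rn by 0.69 and 0.67, Ptges by 0.83 and 0.94, and Tnf by 0.81 and 0.31. For Ptgs2 the difference was 0.11 (-0.42 to 0.65) among control and 0.98 (0.58 to 1.38) among mutant cells. Il1b differed by 0.52 (-0.13 to 1.18) in the mutant library, an interval that includes 0. The lowest mutant bin was above the lowest control bin, by a log2 ratio of 3.79 for Il18bp, 3.72 for Slamf7 and 3.43 for Acod1. In the highest bins these ratios were 3.21, 2.80 and 1.96. Bins of the same rank lay at unlike interferon levels, so these ratios do not compare the libraries at a like level. Nearest in level were the highest control bin (2426 CPM) and the lowest mutant bin (2772 CPM). There, Il18bp was at 6.31 and 16.3 CPM, Slamf7 at 12.9 and 32.8 CPM, and Acod1 at 41.2 and 72.7 CPM. Clec4e (140 and 124 CPM) and Ptges (18.7 and 13.1 CPM) were lower in that mutant bin.

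**Figure D5:**
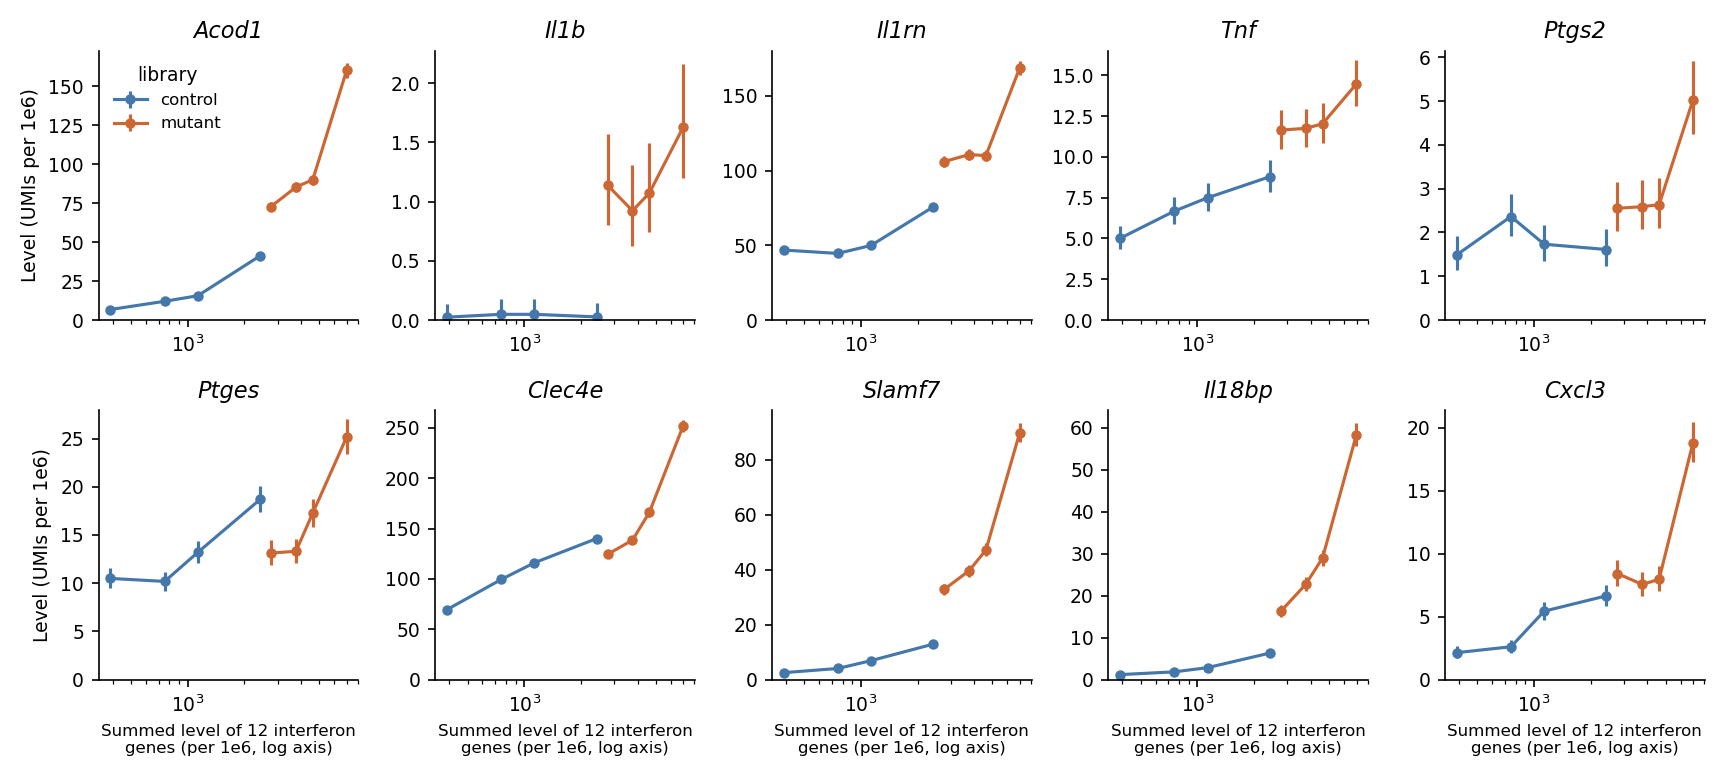
Level of each member (vertical axis, CPM, 95% counting intervals) against the summed level of 12 interferon-stimulated genes (horizontal log axis) in bins of cells, 1 line per library. The control bins span 389 to 2426 and the mutant bins 2772 to 6980 CPM without overlap, and Acod1, Slamf7 and Il18bp are higher from bin to bin in both libraries.

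Genes of the same pathways were read as 8 lists, which together held 79 genes with at least 50 UMIs. Of these, 25 were at least 2-fold higher in the mutant library, 4 were at least 2-fold lower and 50 were within 2-fold, with a median log2 ratio of 0.39. Of all genes, 8.79% were at least 2-fold higher and 4.17% lower, and lists of 7 to 10 genes with 1 such gene lie near that share. The lists were also chosen with earlier results of these data known, so their counts do not measure an enrichment. In each list up to 2 of the highest and 2 of the lowest ratios are named, as log2 ratios of mutant over control.

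Along the IL-1 and IL-18 axis, 4 of 9 genes were at least 2-fold higher, and the list's median was 0.98. Il1r1, the signaling receptor of IL-1, had 25 UMIs among control and 57 among mutant cells (0.153 and 0.434 CPM), and Il18 had a ratio of 1.37. Pycard, the inflammasome adaptor, had 0.23, and Gsdmd, which forms the pore through which IL-1β leaves the cell, had -0.15. In the TNF axis 1 of 8 genes was at least 2-fold higher, namely the receptor gene Tnfrsf1b at 2.01. Tnfaip8l2 was at 0.71, and the adaptors Traf2 and Tradd were at -0.20 and -0.31.

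Of 8 prostanoid genes, 2 were at least 2-fold higher and 1 was lower. Ptger2, a receptor for prostaglandin E2, had a ratio of 2.59 and Hpgds, which makes prostaglandin D2, of 1.24. Ptgs1, the constitutive cyclooxygenase, was lower, at 24.2 CPM in control and 7.74 CPM in mutant cells (-1.64), so the cyclooxygenases Ptgs1 and Ptgs2 went opposite ways. Ptges3 was at -0.27. Among 7 neighbors of itaconate synthesis, 1 was at least 2-fold higher, the transcription factor gene Irf1 at 1.32. The citrate carrier Slc25a1 was at 0.22 and citrate synthase (Cs) at -0.18, beside the 5.49-fold difference of Acod1.

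Among 11 chemokine genes, 6 were at least 2-fold higher and 1 was lower. Ccl5 had a ratio of 2.40 and Cxcl2 of 1.96, whereas Ccl7 had -1.19 and Ccl9 -0.62. Cxcl2, which like Cxcl3 attracts neutrophils, was higher in Cxcl3-positive cells, at 335 against 99.9 CPM among control and 969 against 353 CPM among mutant cells. Of 10 genes of the C-type lectin and Syk pathway, 1 was at least 2-fold higher (Clec4a1 at 2.60). Clec4n was at 0.88, Clec4d, whose product pairs with that of Clec4e, at 0.030, and the signaling gene Malt1 at -0.040. Of 9 SLAM family genes, 4 were at least 2-fold higher and 2 lower. Ly9 had a ratio of 1.82 and Cd244a of 1.62, and Slamf1 had -1.29 and the adaptor gene Sh2d1b1 -1.48, from 40 to 233 UMIs per library for the last 2.

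Of 17 genes of NF-kB feedback and the inflammatory response, 6 were at least 2-fold higher. Nos2, the inducible nitric oxide synthase, had a ratio of 3.28, and in mutant cells it was at 25.7 CPM where Acod1 was detected and 4.38 CPM where it was not. Bcl2a1d had 3.23, although its near-identical copies can share reads. Saa3, an acute-phase gene, was at -0.32 and Il10, an anti-inflammatory cytokine gene, at -0.41.

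Finally, genes were ranked by how closely their level followed the number of members detected across thinned cells (Pearson r over cells, a description, since cells of a library are not replicates). In the control library the 10 highest were Fth1 (r = 0.259), Lgals3 (0.228), Cebpb (0.192), Cybb, Ctsl, Ctsb, Npy, Ctsd, Gpnmb and Pdpn. In the mutant library they were Npc2 (r = 0.314), Fth1 (0.313), Lgals3 (0.291), B2m, Cebpb (0.279), Ctss, Ftl1, Prdx1, Sod2 and Isg15. The 3 genes in both sets were Fth1, a ferritin chain, Lgals3, a galectin, and Cebpb, a C/EBP transcription factor. In each library all 10 genes remained when neutrophil-, stromal- and class II-gate cells were left out.

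Other lists moved with the number of members too. In control cells with 0 and with at least 3 members, OC markers summed to 255 and 117 CPM, interferon-stimulated genes to 1032 and 2104 CPM, and cycling markers to 541 and 456 CPM. In mutant cells the OC markers were at 96.8 and 113 CPM, interferon-stimulated genes at 3982 and 6032 CPM, and cycling markers at 545 and 396 CPM. OC markers were thus lower in member-rich cells of the control library and not of the mutant library, and this difference between libraries was not tested. High doublet scores were held by 4.57% and 5.88% of control cells and by 3.35% and 7.30% of mutant cells with 0 and with at least 3 members.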

How the data were processed

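Single-cell 3′ libraries (10x Genomics v3.1 chemistry) of OC-induced BMDMs were compared, 1 control and 1 LysM-Cre;Arid1afl/fl, grouped by the genotype in the labels. Raw counts of UMIs for each gene in each barcode were deposited; per the file headers the authors ran Cell Ranger 6.1.0, and GRCm39 is named per the labels. PCR copies are collapsed in such counts, and no doublet filter is given in the sources used here. Doublets were kept, and an alternative removed the highest scores (share of simulated doublets, 2 per barcode, among 50 neighbors, at 0.8% per 1000 barcodes), which took 333 and 275 barcodes. The members and gene lists were chosen with earlier results of these data known.

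Barcodes numbered 6455 and 5865, and 186 and 202 failed the cell filter. Levels are counts per 1e6 UMIs, with exact Poisson intervals; log2 ratios have exact conditional binomial intervals, shares have exact binomial (Clopper-Pearson) intervals, and intervals for a difference between shares used the square-and-add method. UMIs without replicates give intervals for counting error only. Genes with at least 50 UMIs over both libraries were compared with the 2-fold limit. Named genes are the members, the 2 highest and 2 lowest ratios of each list, and the 10 genes of at least 10 CPM most correlated with the number of members detected. Symbols of 31977 identifiers matched GENCODE M39. Clec7a of the C-type lectin list is not used here, and 1 gene that this rule names is not reported here. Scripts ran in Python 3.11.15 with numpy 2.4.6 and scipy 1.17.1, and were tested on simulated data.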

Additional observations from a re-analysis of the deposited data

How the results depend on the processing

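The 10 log2 ratios over all cells kept their direction under 8 alternatives each: other scalings, equal weight per cell, doublets removed, gated cells left out, all barcodes, and the highest cell of each library left out, the last chosen after seeing the data. With mitochondrial and ribosomal protein genes left out of the totals, the median of all genes moved by -0.107 and that of the members was 1.13 in place of 1.24. Where the mean had to reach 20 CPM, 3 of 4 members were at least 2-fold higher (5.65% of genes were). The difference in cells with at least 2 members was 13.0 points when thinned to 2000 UMIs, 35.5 at 10000 and 23.1 without thinning, and it was 15.3 points for at least 3 members. Patchy control members numbered 4 of 9 after thinning to 5000 UMIs (1.33% of genes). Without the highest cells, the Ptgs2 log2 ratio in OC and cycling cells was -0.058, from 5 and 1 UMIs. Co-detection counts stayed within 1.5 times of the reported ones under all alternatives run. No paired analysis was possible because each genotype has 1 library. With 1 library each, depth limits counting error only, and genotype cannot be told apart from culture or library.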
